A study of Mus musculus with 3 samples.

Results

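Neuropeptide precursor genes of the cerebral cortex, other than the opioid peptide genes and the somatostatin gene, were examined in ribosome-bound RNA of a Kcnip2-TRAP mouse line. The set was Cck, Npy, Vip, Crh, Tac2, Cort, Adcyap1 and Grp, chosen by symbol. All 8 were found among the 32531 gene rows of each count table. The data came from adult mice of the line NIDA115 on a C57BL/6J background, which carry EGFP fused to the ribosomal protein Rpl10a under regulatory sequences of Kcnip2, the gene of a Kv4 potassium channel subunit. In translating ribosome affinity purification (TRAP), an antibody to EGFP pulls down the tagged ribosomes with the RNA they carry. The 3 immunopurified (IP) libraries, replicates 1, 2 and 3, were untreated and formed 1 group. Input libraries were not analysed here, so the values are levels within the IP, not enrichment over whole cortex. Whether each library is a separate animal or pool is not stated in the labels, and p-values cover spread between libraries that may be technical.

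Neuropeptides are made as longer precursors that enter the secretory pathway, are cut at pairs of basic residues and are often amidated at the carboxyl end. They are released from large dense-core vesicles and act on G protein-coupled receptors. In the cortex most of these genes mark classes of GABAergic interneurons. Npy is found in neurogliaform and many somatostatin cells, Vip and Tac2 in VIP cells, Crh in part of the VIP and somatostatin cells, and Cort in somatostatin and some parvalbumin cells. Cck is made both by a class of basket cells and, as messenger RNA, by many pyramidal cells. Adcyap1 is found largely in pyramidal cells, and Grp in pyramidal cells and part of the VIP cells.

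The precursors share a processing signal that the choice of genes did not use. A glycine codon followed by basic codons marks where a peptide is cut and amidated, and the coding sequences of 7 of the 8 genes held at least 1 such site, against 35.2% of 21714 coding sequences of mouse genes, most of which encode no peptide hormone. It was taken as glycine and 2 basic codons, or glycine and 1 basic codon at the end of the coding sequence, as in Crh. Cort, whose peptide is not amidated, held 0. Vip and Adcyap1, which encode related peptides of the secretin family, held 2 each. For Vip and Adcyap1, 1 of the 2 sites is shown. Those at bases 280 to 333 of Vip and 460 to 513 of Adcyap1 are not. The stretches below are shown because they encode carboxyl ends of released peptides. They come from the GENCODE M21 transcripts (GRCm38), run 5′ to 3′ on the sense strand, and carry the signal in capitals.
Cck, bases 265 to 318 of a coding sequence of 345: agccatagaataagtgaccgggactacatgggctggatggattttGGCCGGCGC
Npy, bases 148 to 201 of 291: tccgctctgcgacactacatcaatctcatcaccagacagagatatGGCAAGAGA
Crh, bases 511 to 561 of 561: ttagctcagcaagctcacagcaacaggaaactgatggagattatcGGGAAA
Tac2, bases 229 to 282 of 348: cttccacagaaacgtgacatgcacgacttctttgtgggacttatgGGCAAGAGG
Vip, bases 415 to 468 of 513: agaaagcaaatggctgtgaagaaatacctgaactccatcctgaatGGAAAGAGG
Adcyap1, bases 427 to 480 of 525: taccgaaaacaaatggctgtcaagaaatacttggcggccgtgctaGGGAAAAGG
Set against each other with a shift of 1 codon, the placement with most identical bases among whole-codon shifts without gaps, the Vip and Adcyap1 stretches were identical at 31 of the 42 lower-case bases that then overlap (73.8%). Aligned at the signal as printed, they were identical at 10 of 45 lower-case bases.

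On mm10, Cck lies at chr9:121489824-121495694 on the minus strand, Npy at chr6:49822710-49829507 on the plus strand and Vip at chr10:5639218-5647617 on the plus strand. Crh lies at chr3:19693401-19695396 (minus), Tac2 at chr10:127724478-127731768 (plus), Cort at chr4:149125034-149126763 (minus), Adcyap1 at chr17:93199017-93206537 (plus) and Grp at chr18:65872820-65886596 (plus). All 8 are annotated as protein-coding. None shared an exon base with another annotated gene, and only Grp overlapped one, AC152076.4 on the opposite strand.

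Depth in replicates 1, 2 and 3 was 11602248, 13635132 and 14174384 counts in genes. There 3 counts, the limit that a count of 0 allows, equalled 0.213 to 0.256 CPM (counts per 1e6 counts of the TMM-scaled library size). These limits and the intervals given here cover counting error only. Markers of the labelled tissue were present, with the synaptic fusion protein gene Snap25 at 33507 ± 2340.3 CPM and the cortical glutamatergic gene Slc17a7 at 249.9 ± 47.5 CPM (SD, n = 3). The 4 endothelial and mural genes ranged from 0.0569 ± 0.0985 CPM for Cldn5 to 8.10 ± 2.08 for Rgs5. Of the 3 thalamic genes, Gbx2 had 0 counts in all 3 libraries, Lef1 had 13, 43 and 13 and Prkcd had 26, 99 and 36 in replicates 1, 2 and 3. Of the 3 choroid plexus genes, Ttr had 569 counts in replicate 2 and 0 in replicates 1 and 3. Kl had 46, 54 and 79 counts in replicates 1, 2 and 3, and Folr1 had 0 in each.

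Cck stood far above the other 7 genes, Npy came next, and the remaining 6 lay together near the middle of all genes. Cck, the cholecystokinin gene, was at 540, 521 and 666 CPM in replicates 1, 2 and 3, from 6323, 7064 and 9394 counts. Replicate 3 was the highest and the other two lay close to each other. Npy, the neuropeptide Y gene, was at 16.9, 20.3 and 18.2 CPM, and all 3 libraries were within 1.20-fold of each other. Fewer cells that use a gene and less RNA per cell cannot be told apart in such bulk samples.

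Levels of different genes were compared only after division by union exon length, the length of all annotated exons merged, which may exceed that of the transcript in use. On that scale Cck was at 441 ± 60.5 CPM per kilobase and ranked 38 among 16642 genes with a length and a read. Its level was 720 ± 98.8 CPM per kilobase of the longest annotated transcript and 735 ± 101 per kilobase of the principal one. Npy was at 32.6 ± 3.01 CPM per kilobase and ranked 1128. The other 6 ranged from 1.84 ± 0.899 CPM per kilobase for Adcyap1 to 2.34 ± 1.47 for Cort (SD, n = 3), at the 46.7 to 50.9 percentile of those genes. The median of the 8 precursor genes was 2.13 CPM per kilobase, against 2.24 over all 16642 genes. Cck alone supplied 90.7% ± 1.32 (SD, n = 3) of the summed level per kilobase of the 8 genes, and Npy 6.79% ± 1.13.

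**Figure D1:**
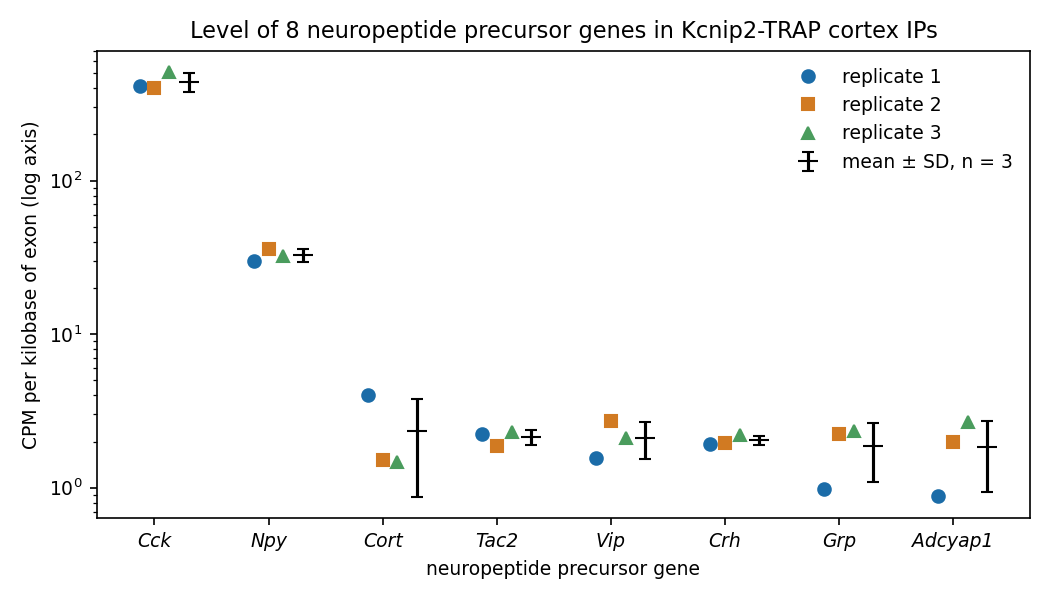
Level of each precursor gene in CPM per kilobase of union exon (vertical log axis) in each of 3 IP libraries, with the mean ± SD in black. Cck lies at 399 to 510 CPM per kilobase, Npy at 29.8 to 35.8, and the points of the other 6 genes overlap one another.

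Among the interneuron peptides below Npy, Vip was at 5.29, 9.22 and 7.16 CPM in replicates 1, 2 and 3, from 62, 125 and 101 counts. Its 95% Poisson interval in replicate 1, 4.06 to 6.78 CPM, lay below that in replicate 2, 7.67 to 10.98 CPM. Tac2, which encodes the neurokinin B precursor, was at 3.07, 2.58 and 3.19 CPM, from 36, 35 and 45 counts. Those 3 values lay within each other's counting intervals. Crh, the gene of corticotropin-releasing hormone, was the steadiest of the 8 at 2.56, 2.58 and 2.91 CPM, from 30, 35 and 41 counts, with a coefficient of variation of 7.25%.

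Cort, which encodes cortistatin, a peptide close to somatostatin, was at 2.73, 1.03 and 0.992 CPM, from 32, 14 and 14 counts. Replicate 1 was the high one, and its interval of 1.87 to 3.85 CPM lay above those of replicates 2 (0.564 to 1.73) and 3 (0.543 to 1.67). Its place above Tac2 in the order of mean levels per kilobase rested on that library. Cort was the only one of the 8 genes that did not reach 1 CPM in all 3 libraries, and it missed in replicate 3 alone. The other 7 did, against 37.3% of all 32531 gene rows. Grp, next above that limit, was at 1.45 CPM in its lowest library.

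With Cort, the genes Adcyap1 and Grp had the widest ranges between libraries. Adcyap1, the gene of pituitary adenylate cyclase-activating polypeptide (PACAP), was at 3.33, 7.45 and 10.1 CPM in replicates 1, 2 and 3, from 39, 101 and 142 counts. Replicate 3 was 3.02-fold above replicate 1, and the counting interval in replicate 1 (2.37 to 4.55 CPM) lay below those in replicate 2 (6.07 to 9.05) and replicate 3 (8.48 to 11.9). Grp, the gastrin-releasing peptide gene, was at 1.45, 3.32 and 3.47 CPM, from 17, 45 and 49 counts. It too was lowest in replicate 1, with replicates 2 and 3 close to each other.

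Whether any of these genes varied between libraries more than genes of its own level was tested with edgeR's quasi-dispersion F ratio over all 12509 genes past a count filter. All 8 precursor genes passed the filter and 0 of 8 passed the test, against 0.0959% (12 genes) of all those tested. At an unadjusted p under 0.05 the counts were 0 of the 8 and 723 of all genes, and DESeq2's dispersion outliers, 28 of the 12509 genes, included 0 of the 8. The largest F ratio was that of Adcyap1 (3.35, edgeR unadjusted p = 0.0504, adjusted p = 0.865), at the 94.2 percentile of all genes. Its unadjusted p lay just above 0.05. Cck and Cort followed at 2.24 and 2.22 (edgeR adjusted p = 0.969 for both). Crh had the smallest, 0.0340, at the 3.36 percentile.

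Replicate 1 was the lowest library for 5 of the 8 genes (Npy, Vip, Crh, Grp and Adcyap1), against 36.4% of all genes tested, and the median log2 deviation of the 8 genes from their own means was -0.10 there, 0.04 in replicate 2 and 0.11 in replicate 3. Cort went the other way, with a log2 deviation of 0.87 in replicate 1, against -0.76 for Grp and -0.89 for Adcyap1. The median range over libraries was 0.57 on the log2 scale for the 8 genes and 0.41 over all genes tested. Medians of other marker lists in replicate 1 lay on both sides of 0. Of 4 glutamatergic genes the median deviation there was -0.24, of 5 astrocyte genes -0.35, of 3 of 5 microglial genes past the filter -0.36, of 2 of 4 endothelial and mural genes past it -0.47 and of 3 parvalbumin interneuron genes 0.40. It was 0.12 for 4 VIP interneuron genes, Vip included, 0.17 for 3 GABAergic genes, -0.17 for 2 of 3 somatostatin interneuron genes past the filter, -0.11 for 3 Lamp5 interneuron genes and -0.50 for 2 of 3 thalamic genes past it. Members of a list did not all go the same way. Aldh1l1 and Gfap were highest in replicate 1 (9.81 and 14.8 CPM), while the other astrocyte genes were lowest there. Crhbp was highest there (45.7 CPM) and Sst lowest (430 CPM). Of the microglial, endothelial and mural genes that the filter dropped, Pecam1 had 42, 8 and 1 counts in replicates 1, 2 and 3. Cldn5 had 2, 0 and 0, Tyrobp 7, 1 and 1, and C1qa 2, 6 and 10. The summed level over the 3 libraries was 5966 to 7990 CPM for the glutamatergic, 111 to 187 for the astrocyte, 33.3 to 53.6 for the microglial, 12.2 to 16.7 for the endothelial and mural and 191 to 323 for the parvalbumin genes. The sums were 27.4 to 33.9 CPM for the VIP, 1268 to 1418 for the GABAergic, 476 to 935 for the somatostatin, 167 to 186 for the Lamp5 and 3.33 to 10.5 for the thalamic genes. Of all these lists only the thalamic one held a gene at 0 counts in all 3 libraries, Gbx2. Their part in the values of the precursor genes was not tested.

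**Figure D2:**
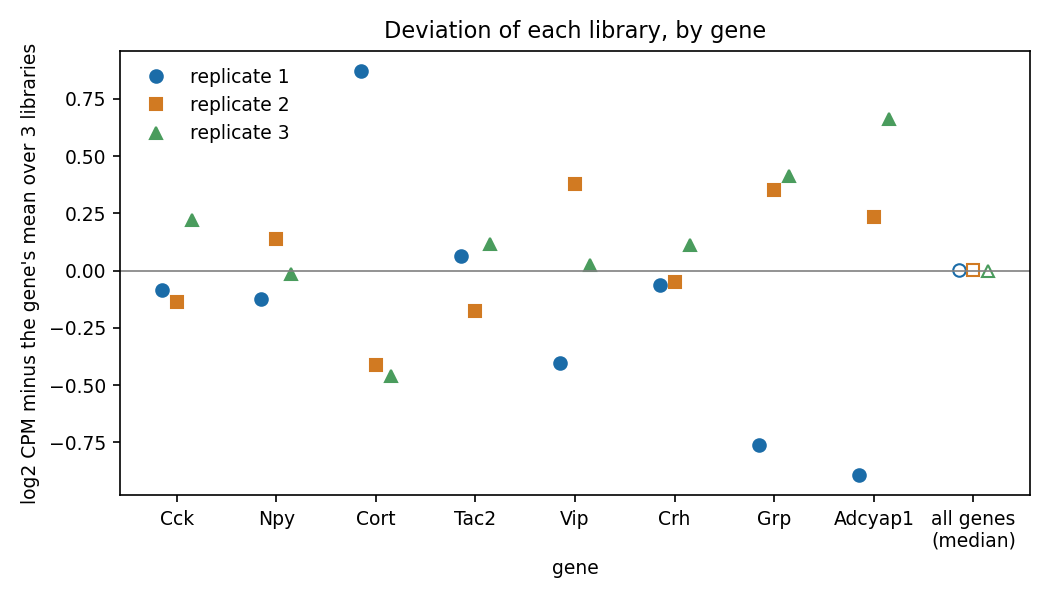
Log2 CPM of each gene in each library minus the gene's mean over 3 libraries (vertical axis), with the median over all 12509 genes tested as open symbols. Grp and Adcyap1 lie lowest in replicate 1 (-0.76 and -0.89), Cort lies highest there (0.87), and Crh, Npy and Tac2 stay within 0.29 on the log2 scale.

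In the order of mean level per kilobase, 2 of the 7 neighbouring pairs kept their direction in all 3 libraries. Cck exceeded Npy 13.4-fold (log2 ratio 3.74 ± 0.26 SD, higher in 3 of 3 libraries; 4.45 with the longest transcript, 4.48 with the principal one and 4.95 without division by length), and Npy exceeded Cort 14.1-fold (log2 ratio 3.82 ± 0.86, higher in 3 of 3). For these the exact two-sided sign-flip test gave p = 0.25, the smallest that 3 libraries allow, so no pair could pass 0.05. The levels of Cort, Tac2, Vip, Crh, Grp and Adcyap1 overlapped, and each mean log2 ratio between neighbours among them was at most 0.22 in size and smaller than its SD of 0.21 to 0.72. Their order also changed with the length used. With the longest transcript tagged principal in place of union exons, Vip, at 4.72 ± 1.28 CPM per kilobase, came next after Npy, and Cort, at 2.34 ± 1.47, came after Tac2, at 3.46 ± 0.379.

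Pairs of genes known from the same or related cells showed how far the peptides stood from their partners. Cck was below Sst, the somatostatin gene, in 3 of 3 libraries per kilobase (log2 ratio -0.53, -0.94 and -1.28 in replicates 1, 2 and 3), and the mean log2 ratio of -0.92 was -0.06 without division by length and -0.18 with the principal transcript. In plain CPM Cck was above Sst in replicate 1 (540 against 430 CPM) and below it in replicates 2 and 3. Npy was 25.2-fold below Sst (log2 ratio -4.66 ± 0.52) and Cort 355-fold below it (log2 ratio -8.47 ± 1.22, and -9.15 without replicate 1), each in 3 of 3 libraries. Crh was 10.9-fold below Crhbp, the gene of the protein that binds its peptide (log2 ratio -3.45 ± 0.20, lower in 3 of 3). Against Cnr1, the cannabinoid receptor gene used as a mark of Cck basket cells, Cck was 32.4-fold higher (log2 ratio 5.02 ± 0.21, against 2.71 without division by length and 5.60 with the principal transcript). Npy was 15.8-fold above Nos1, the nitric oxide synthase gene found in some Npy cells (log2 ratio 3.98 ± 0.20 per kilobase), a direction that turned without division by length (log2 ratio -0.32). Vip did not hold one direction against Calb2, a calretinin gene of VIP cells (log2 ratio -0.44 ± 0.48, lower in 2 of 3), or against Adcyap1 (log2 ratio 0.31 ± 0.58, higher in 2 of 3).

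**Figure D3:**
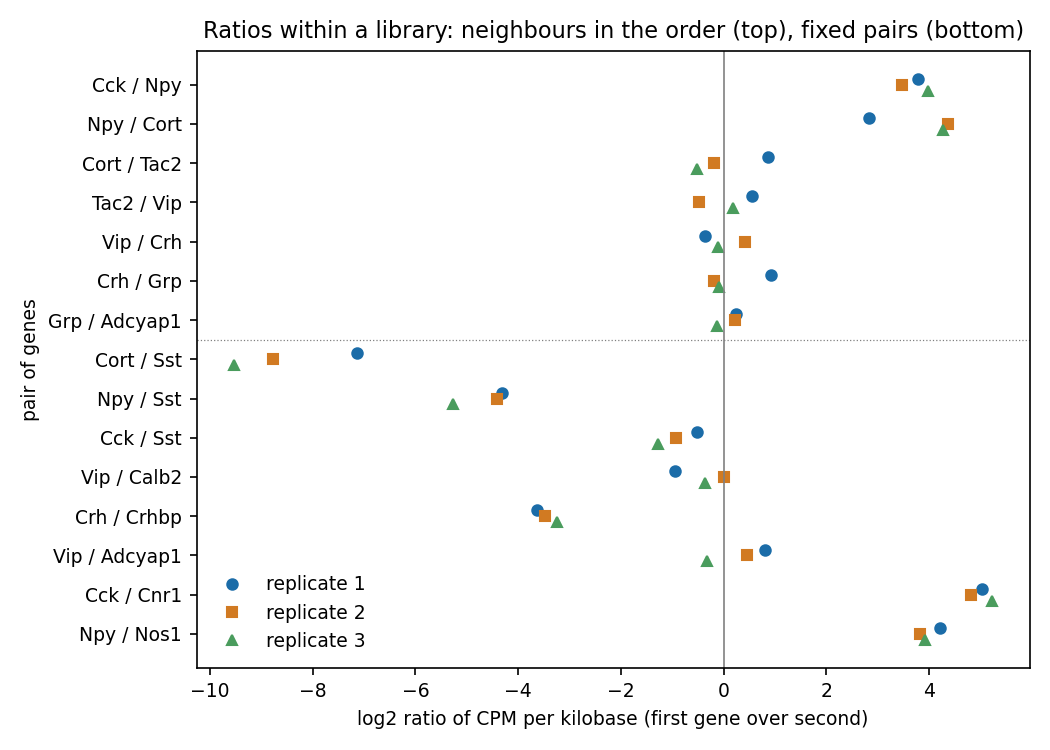
Log2 ratio of the levels per kilobase of the first over the second gene (horizontal axis) in each of 3 libraries, with the 7 neighbouring pairs of the order above the dotted line and the 8 fixed pairs below it. Cck over Npy and Npy over Cort lie right of 0 in every library, while each of the 5 lower neighbouring pairs has points on both sides of 0.

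Among 38 peptide precursor genes that the lists held, Cck ranked 2 per kilobase, after Sst (867 ± 336 CPM per kilobase), and Npy ranked 4, after Penk, the enkephalin gene (78.8 ± 24.1), while Cort, Tac2, Vip, Crh, Grp and Adcyap1 took the ranks 8 to 13. Of the 13 other cortical precursors, 8 reached 1 CPM in every library. Sst was 1 of 10 tested genes of that list to pass the variability test (edgeR adjusted p = 0.0193), at 430, 550 and 896 CPM in replicates 1, 2 and 3, and Rln1 was the lowest of the list at 0.0521 ± 0.0457 CPM, below the counting limit. Of 17 precursor genes of other brain regions, 0 reached 1 CPM in every library and Hcrt, Kiss1, Ucn, Npff, Rln3 and Gnrh1 had 0 counts in all 3. Avp, the vasopressin gene, was the highest of them by mean at 0.761 ± 0.465 CPM per kilobase, below the mean of each of the 8 precursor genes. Calca had 26, 8 and 2 counts, or 1.32, 0.350 and 0.0842 CPM per kilobase, in replicates 1, 2 and 3. In replicate 1 it lay above Grp (0.982) and Adcyap1 (0.881). The 6 hypothalamic peptide genes Agrp, Pmch, Hcrt, Oxt, Avp and Pomc summed to 1.28, 1.18 and 0.567 CPM.

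The receptors of these peptides and the Crh-binding protein were mostly present. The PACAP receptor gene led, followed by Cckbr and Crhbp at close levels. Of 21 such genes, 15 reached 1 CPM in every library and 0 of 15 passed the edgeR variability test. Adcyap1r1, the PACAP receptor gene, was highest at 32.3 ± 2.76 CPM per kilobase, against 1.84 ± 0.899 for its ligand gene Adcyap1. Its values were 195, 231 and 214 CPM in replicates 1, 2 and 3, a closer range than that of Adcyap1. Cckbr, the cholecystokinin B receptor gene of the brain, was at 24.01 ± 3.09 CPM per kilobase, and Cckar, the A receptor gene, was at 1.19, 0 and 0.0709 CPM. Crhbp was at 23.3 ± 1.86 CPM per kilobase, above Cckbr in replicate 1 (25.4 against 20.5) and below it in replicates 2 and 3. The neuropeptide Y receptor genes Npy1r, Npy2r and Npy5r were at 21.98 ± 2.42, 6.28 ± 1.20 and 3.12 ± 0.575 CPM. Npy4r and Npy6r had 0 counts in all 3 libraries. Of the somatostatin receptor genes, Sstr1 was at 17.7 ± 1.51 CPM, Sstr2 at 10.8 ± 4.67, Sstr3 at 11.3 ± 1.23 and Sstr4 at 12.1 ± 2.44. Sstr5 had 0 counts in all 3 libraries. Of the genes of receptors that Vip, Crh, Tac2 and Grp peptides act on, Vipr1 was at 4.91 ± 0.615 CPM, Crhr1 at 3.88 ± 0.366, Tacr3 at 2.30 ± 0.147 and Grpr at 1.56 ± 0.379. Vipr2 was at 0.0853, 2.65 and 1.21 CPM, from below the counting limit in replicate 1.

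All 6 genes of prohormone processing were detected and 0 of 6 passed the edgeR variability test. Cpe, the carboxypeptidase that trims basic residues after cleavage, was highest at 145 ± 26.7 CPM per kilobase, and Pcsk1, a prohormone convertase, was lowest at 2.005 ± 0.453. Pam, the enzyme that amidates peptides at the glycine signal shown above, was at 96.4, 99.5 and 96.6 CPM in replicates 1, 2 and 3. Of the 14 partner genes of peptide-bearing interneurons, all 14 were detected and 0 passed the same test. Their means ran from Pvalb, the parvalbumin gene, at 132 ± 48.8 CPM per kilobase to Chat, the acetylcholine-synthesizing enzyme, at 0.393 ± 0.183. The place of Pvalb rested on replicate 1, since Gad2, at 130.5 ± 4.36, lay above it in replicates 2 and 3. Npy, at 32.6 ± 3.01 CPM per kilobase, was near Lamp5, a neurogliaform cell gene, at 33.5 ± 2.21. The other Lamp5 interneuron genes were lower, Reln at 2.90 ± 0.243 and Ndnf at 1.21 ± 0.216.

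**Figure D4:**
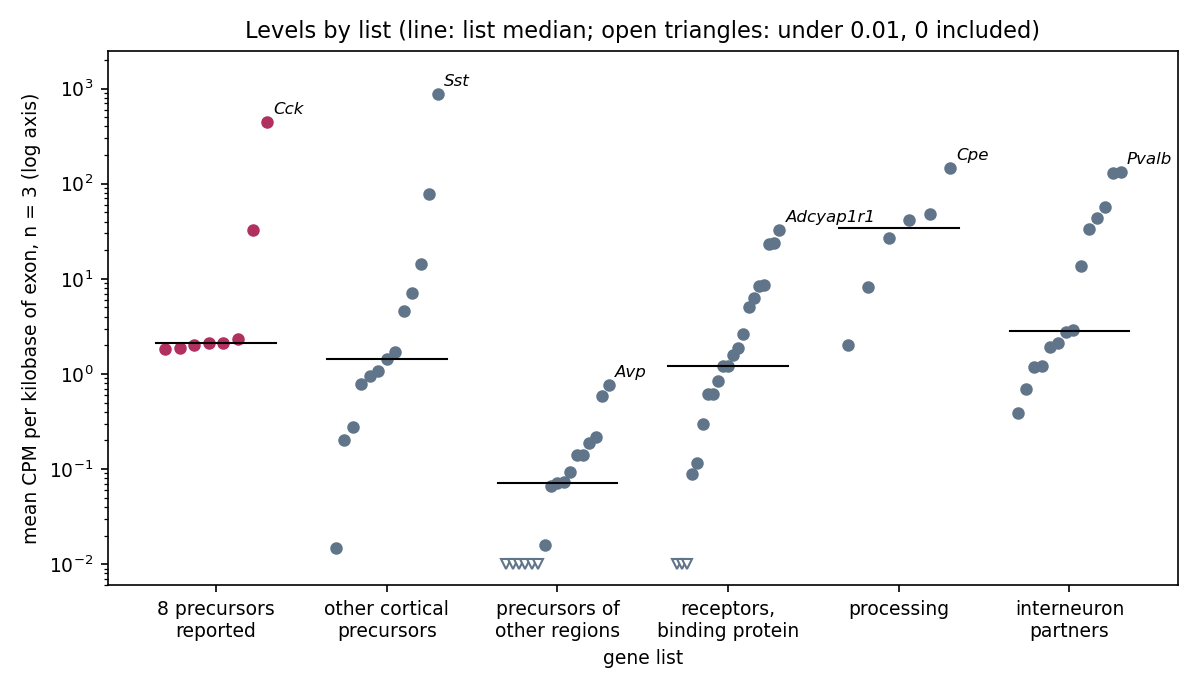
Mean level of each gene over 3 libraries in CPM per kilobase (vertical log axis), by gene list, with the list median as a line and genes under 0.01 as open triangles. The median is 2.13 for the 8 precursors, 1.43 for other cortical precursors, 0.0707 for precursors of other regions, 1.22 for receptors, 34.1 for processing genes and 2.84 for interneuron partners.

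For each precursor gene, the gene most like it over the 3 libraries was found by the distance between centred log2 CPM values, among 8307 other genes at a mean of 10 CPM or more. With only 3 libraries such likeness is a description. Cck lay nearest to Fech and had 278 genes within a distance of 0.1, Npy lay nearest to Sidt1, with 636 such genes, and Crh to Brox, with 781. Tac2 lay nearest to Zfp266 and Vip to Foxn2, with 384 and 57 genes within that distance. The genes with wider swings had few neighbours. The distance was not scaled to the size of the swing, so few neighbours do not make a pattern unusual. Grp had 3, the nearest being Ip6k2, Cort had only Relt at a distance of 0.0677, and Adcyap1 had only Ptgs2 at 0.0832. Ptgs2, an activity-regulated cyclooxygenase gene, was at 20.6, 46.4 and 65.8 CPM in replicates 1, 2 and 3 (edgeR adjusted p = 0.0266 in the variability test).

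The start sites of these genes were also read for the letters of the cyclic AMP response element, a DNA motif bound by the transcription factor CREB. RefSeq windows of 250 bases before to 50 after the start (GRCm38.p6) were read for 6 of the 8 genes, Cck, Npy, Vip, Tac2, Cort and Adcyap1. Crh had no match, and the window of Grp is not reported here. The 5 letters TGACG, on either strand, occurred in 4 of the 6 genes (Cck, Cort, Vip and Adcyap1) and in 20.8% of all 32851 windows. The 7 letters TGACGTC, which contain TGACG, occurred in Vip and Adcyap1 and in 3.21% of all windows. These motifs were chosen after the sequences were seen, and a match is not evidence of a site in use. The windows around the matches are shown 5′ to 3′ on the gene's strand because they carry the longer motif in Vip, at position -79 from the start, and in Adcyap1, and the shorter one in Cck. In Adcyap1 the same letters lie at -91 from the first of 2 annotated starts and at -242 from the other. Capitals mark TGACG or its reverse complement.
Vip, chr10:5639109-5639173, plus strand: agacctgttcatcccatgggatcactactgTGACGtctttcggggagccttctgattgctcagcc
Adcyap1, chr17:93198896-93198960, plus strand: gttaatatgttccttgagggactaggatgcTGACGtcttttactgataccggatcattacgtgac
Cck, chr9:121495707-121495771, minus strand: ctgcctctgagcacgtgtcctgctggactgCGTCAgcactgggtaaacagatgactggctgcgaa
Vip and Adcyap1 were both lowest in replicate 1 (5.29 and 3.33 CPM), as were Npy, Crh and Grp, whereas Cck, with 540 CPM in that library, was not. Cort, the other gene with TGACG, at position -18, was highest there (2.73 CPM). A link between the motif and these levels was not tested.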

How the data were processed

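Ribosome-bound RNA of 3 IP libraries was sequenced. The deposited values are raw read counts per gene symbol, made by the authors with STAR 2.0.0e and HTSeq on mm10, per the submitters' processing notes. The counting mode, strand setting and annotation release were not stated there. Special rows of the counter (29.3% to 38.1% of tallied reads) were left out. The gene set and lists were chosen with earlier results of these data known.

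Counts were scaled by TMM (edgeR 4.0.16, R 4.3.3) and given as CPM ± SD. Log2 values used a prior count of 2. Exon lengths came from GENCODE M21 (GRCm38, the assembly of mm10), matched by symbol for 23155 rows and by synonym for 770. Variability was tested with glmQLFit (robust, intercept-only, filterByExpr minimum count 10). Each gene's quasi-dispersion was compared with the trend on the prior degrees of freedom of the bulk of genes, Benjamini-Hochberg adjusted at 0.05 over 12509 genes, and the test was checked on simulated counts. The common biological coefficient of variation was 0.197. Each pair of libraries differed beyond counting noise (chi-square 12.3 to 28.5 per degree of freedom). DESeq2 1.42.0 was an alternative. Of each list the highest, the lowest, genes that passed and fixed pairs were named; other list members were chosen after their values were seen.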

Additional observations from a re-analysis of the deposited data

How the results depend on the processing

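No paired analysis was possible because the 3 libraries form 1 group. The number of genes more variable than others of their level, 12, was 66 with no count filter, 5 with a non-robust fit, 28 by DESeq2's dispersion outliers and 4 to 10 with 1 replicate left out; 0 of the 8 precursor genes were called under each of these settings and with DESeq2's size factors. The number detected, 7, was 3 at a threshold of 5 CPM (Cck, Npy and Vip) and 7 to 8 with 1 replicate left out. Cck's share of the summed level was 93.8% with the longest transcript and 93.6% with the principal transcript, a length chosen after seeing the data, and 90.1% to 91.4% with 1 replicate left out. The number of neighbouring pairs with the direction of their 3-library mean in every library, 2, was 2 to 4 with 1 replicate left out. Without replicate 1, Cort over Tac2 (-0.18 and -0.52) and Crh over Grp (-0.18 and -0.08) held the reverse direction in replicates 2 and 3.

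Log2 ratios among the 6 lower genes changed sign. Without division by length they were -0.97 for Cort over Tac2, -1.22 for Tac2 over Vip, 1.35 for Vip over Crh and -1.25 for Grp over Adcyap1, and likewise 0.53 for Vip over Calb2 and -0.32 for Npy over Nos1. With the longest transcript they were -0.64 for Cort over Tac2 and 0.41 for Vip over Crh, and with the principal transcript -0.64 for Cort over Tac2, -0.38 for Tac2 over Vip, 1.13 for Vip over Crh and 0.43 for Vip over Calb2. With a prior count of 0.5 they were -0.0099 for Cort over Tac2 and 0.017 for Vip over Crh. With 1 replicate left out they ran from -0.35 to 0.34 for Cort over Tac2, -0.15 to 0.36 for Tac2 over Vip, -0.23 to 0.15 for Vip over Crh and -0.13 to 0.42 for Crh over Grp. The counts behind Cort, Grp, Crh and Tac2 were 14 to 49 a library, which limits the precision of their levels.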
